A study of Homo sapiens with 9 samples.

Results

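The gene group described here is the core machinery of DNA replication together with the genes that govern entry into S phase, in N/TERT cells labelled as SGPL1 knockout or as SGPL1 overexpression. It holds 48 genes of 60671 in the count tables, chosen by symbol for their known roles in origin licensing, the replisome, nucleotide supply and as E2F targets. The choice was made with earlier results of these data known. All 48 were found under a single Ensembl identifier and all 48 passed the filter on low counts, which kept 13390 genes. By role, 10 members license origins or form the MCM helicase, 6 activate that helicase, 12 are polymerase, primase, clamp or clamp loader subunits, 6 act in strand maturation, single-strand binding or fork protection, 4 supply nucleotides, 4 act in chromatin assembly or histone mRNA binding, and 6 regulate the G1/S transition.

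Before S phase, the origin recognition complex (ORC), CDC6 and CDT1 load inactive MCM helicases onto DNA, a step called licensing. Cyclin-dependent and DBF4-dependent kinases then recruit CDC45 and the GINS complex, which turn MCM into an active helicase, and polymerases with the sliding clamp PCNA copy the unwound strands. Many of these genes are transcribed by E2F factors once cyclin-dependent kinases inactivate the retinoblastoma protein, so in epidermis their mRNAs mark proliferating basal keratinocytes and decline as cells differentiate.

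N/TERT cells are immortalized human keratinocytes of the epidermis that express telomerase. The groups were CRISPR knockout lines of SGPL1 (KO), lines overexpressing SGPL1 (OE) and control cells of wild-type genotype, with 3 untreated libraries of polyadenylated RNA each. SGPL1 encodes sphingosine-1-phosphate lyase, which degrades the lipid mediator sphingosine-1-phosphate, and the series concerns the skin disease of its insufficiency. The 3 libraries of each group are described as biological replicates. The number of clones or cultures behind a group, the guide and the overexpression promoter are not given in the sources used here, so p values measure the spread between these libraries only.

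Libraries held 6317564 to 13330479 gene counts, with KO replicate 3 the shallowest and OE replicate 3 the deepest. Levels are counts per 1e6 counts (CPM) after TMM scaling. SGPL1 had 58.8, 58.3 and 61.6 CPM in KO libraries, 1132, 1104 and 929 CPM in OE libraries, and 83.9, 95.1 and 98.3 CPM in control libraries, in the order of the labels. The groups did not overlap, and KO libraries kept part of the SGPL1 mRNA, so the level of this mRNA does not by itself check the edit. All 10 keratinocyte markers were detected in each group, with summed levels of 14496 to 15709 CPM in KO, 31938 to 34320 CPM in OE and 28935 to 29522 CPM in control. Summed fibroblast markers came to 8.46 to 15.1 CPM in KO, 24.5 to 28.4 CPM in OE and 21.7 to 28.3 CPM in control, nearly all of it COL1A1, with COL3A1 and LUM at 0 in each group. Summed melanocyte markers stayed at 1.86 to 2.41 CPM in KO, 1.46 to 3.10 CPM in OE and 1.57 to 2.73 CPM in control, with TYR, DCT and SOX10 at 0 in each group. The share that such differences have in the results below was not tested.

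Because E2F sites are what these genes are best known to have in common, 6 promoter stretches with a match are shown, 1 for each of 6 members, from RefSeq on GRCh38.p14. Each stretch is the 150 bases just before the annotated start, and capitals mark a match to TTTCCCGC, TTTGGCGC, TTTCGCGC or TTTGCCGC on either strand. MCM6 (chr2:135876444-135876593, minus strand) is a subunit of the MCM helicase, CDT1 (chr16:88803639-88803788, plus strand) loads it, and PCNA (chr20:5126623-5126772, minus strand) is the sliding clamp. TYMS (chr18:657503-657652, plus strand) makes thymidylate, E2F1 (chr20:33686386-33686535, minus strand) is itself an activator E2F, and CDC25A (chr3:48188418-48188567, minus strand) is the phosphatase that activates cyclin-dependent kinases at G1/S.
MCM6: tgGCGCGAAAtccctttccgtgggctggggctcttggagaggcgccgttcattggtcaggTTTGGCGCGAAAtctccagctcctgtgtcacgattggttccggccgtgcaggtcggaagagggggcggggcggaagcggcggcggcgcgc
CDT1: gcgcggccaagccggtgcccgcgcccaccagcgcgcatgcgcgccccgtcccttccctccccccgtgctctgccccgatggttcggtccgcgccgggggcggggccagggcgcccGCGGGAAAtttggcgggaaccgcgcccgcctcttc
PCNA: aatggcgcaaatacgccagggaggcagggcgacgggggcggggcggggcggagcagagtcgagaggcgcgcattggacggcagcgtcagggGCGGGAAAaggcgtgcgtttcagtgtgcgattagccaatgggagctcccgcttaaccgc
TYMS: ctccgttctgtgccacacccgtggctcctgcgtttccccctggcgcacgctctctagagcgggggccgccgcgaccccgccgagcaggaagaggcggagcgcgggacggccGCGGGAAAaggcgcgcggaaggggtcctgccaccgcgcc
E2F1: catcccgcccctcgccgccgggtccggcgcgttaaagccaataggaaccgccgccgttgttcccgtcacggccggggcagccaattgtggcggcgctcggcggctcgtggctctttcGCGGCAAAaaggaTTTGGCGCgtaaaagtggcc
CDC25A: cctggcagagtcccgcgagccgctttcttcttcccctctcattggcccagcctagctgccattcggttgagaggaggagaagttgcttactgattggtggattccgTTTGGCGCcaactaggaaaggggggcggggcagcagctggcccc

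MCM6 has 3 matches, of which 2 overlap in the run of capitals nearest the start, and E2F1 has 2, whereas the other stretches have 1 each. Over the longer window of 250 bases before to 50 bases after a start, a match was present in 23 of the 43 members with a window (53.5%), against 679 of the 10143 tested genes with a window (6.69%) and 1090 of all 27305 genes with one (3.99%). Of the 13390 tested genes, the others had no window in the table. Since the members were chosen partly as E2F targets, this share describes the choice and is no result of the experiment. A match is a run of letters and not a proven binding site. Matches were present in 6 of 8 licensing and MCM members with a window, 3 of 5 in helicase activation, 6 of 12 among polymerases, clamp and loader, 3 of 5 in strand maturation and fork protection, 1 of 4 in nucleotide supply, 1 of 4 in chromatin assembly and 3 of 5 G1/S regulators. The members with a match had a median log2 fold change of 0.76 in OE over control, against 0.79 for the 20 members whose window had none, and in KO over control the medians were -0.20 and 0.06. Members with and without these letters thus had nearly equal medians in OE, and their ranges overlapped in both comparisons.

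In OE cells the whole group stood higher than in control cells. Of 48 members, 42 rose and none fell, where 18.6% of all tested genes were called, 9.28% as higher and 9.34% as lower (edgeR quasi-likelihood test, Benjamini-Hochberg adjusted p under 0.05 over 13390 genes, as for every adjusted p given here). All 48 log2 fold changes were above 0, from 0.26 for POLD2 to 1.48 for MCM10, with a median of 0.77, against a median of -0.01 over all tested genes. No member was therefore lower at an unadjusted p under 0.05, and DESeq2 and limma-voom also called 0 members lower. The change was at least 2-fold in 9 members, a size reached upward by 1.46% of tested genes. In 44 members every OE library lay above every control library, and 34.8% of tested genes had libraries that did not overlap between these groups. The 6 members with no call were GINS3, POLE2, RFC5, RPA2, TIPIN and CCNE1, each with a fold change above 0.

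Summed over the 48 members, levels were 2938, 3327 and 3379 CPM in OE libraries, against 1857, 1989 and 1945 CPM in control libraries. In bulk RNA, a larger share of cells in S phase and more of each mRNA per cell cannot be told apart. The call was kept in each of the 9 fits that left out a library for 36 of the 42 members. The other 6 were GINS4, POLA2, POLD2, TIMELESS, TYMS and CCNE2, whose adjusted p values in the full fit were 0.0116, 0.0452, 0.0411, 0.0139, 0.0201 and 0.0348.

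In KO cells the members split. Against control, 9 rose, 16 fell and 23 were not called, so that 52.1% were called where 51.9% of all tested genes were, 26.0% as higher and 25.9% as lower. The share of members called in either direction was thus close to that of genes in general. By direction, 18.8% of members were called higher and 33.3% lower. The median log2 fold change of 0.03 was close to the 0.00 of all tested genes. Values ran from -1.44 for CLSPN to 1.04 for GINS2, with 1 member at least 2-fold higher (GINS2) and 3 at least 2-fold lower (CLSPN, POLE and UHRF1). Sizes of at least 2-fold were reached by 6.36% of tested genes upward and 6.52% downward. The libraries did not overlap in 26 members (54.2%), where the share among all tested genes was 59.5%. The summed level was 1813, 1799 and 2069 CPM in KO libraries, on both sides of the 1857, 1989 and 1945 CPM of control libraries, and KO replicate 3 was the highest of its group. In the fits that left out a library, 16 of the 25 calls were kept each time, and the others were MCM2, MCM3, MCM4, MCM5, FEN1, RRM1, SLBP, E2F1 and E2F2. Without KO replicate 2 the count of members that fell was 10 in place of 16.

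KO fold changes followed exon length and base composition across all genes, so KO values are also given from a fit with an offset for exon length and GC content, called corrected. Exon length counts all annotated exon bases of a gene and can exceed the length of its transcripts. Corrected, 7 members were higher and 10 lower in KO, a called share of 35.4%, where 45.5% of tested genes were called, 24.7% as higher and 20.8% as lower. The corrected median was -0.10, with 34 of 48 values below 0, against 0.02 over all tested genes, and uncorrected 23 of the 48 were below 0. The calls shared by both fits were GINS1, GINS2, RPA2, TYMS and TK1 as higher, and MCM3, POLA1, POLE, FEN1, LIG1, CLSPN, TIMELESS, CHAF1A and UHRF1 as lower. Corrected values added POLD2 and RRM2 as higher and CCNE1 as lower. They removed the calls of PCNA, RFC2, RRM1 and SLBP as higher and of MCM2, MCM4, MCM5, MCM7, POLD1, E2F1 and E2F2 as lower. In OE over control the same 42 members were called higher with the correction, with a median of 0.75, where 21.2% of tested genes were called, 10.6% as higher and 10.5% as lower.

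Set directly against OE, KO cells had lower levels of most members. Of 48, 35 fell, 1 rose (RPA2) and 12 were not called, with a median log2 fold change of -0.89, where 57.6% of all tested genes were called, 28.6% as higher and 29.0% as lower. The median over all tested genes was -0.01. The difference was at least 2-fold downward in 20 members, a size reached by 8.95% of tested genes. The libraries of the groups did not overlap in 36 members (75.0%), against 61.6% of tested genes. Corrected, 40 members were lower and none higher, with a median of -0.94, where 53.2% of tested genes were called, 25.2% as lower and 28.0% as higher. Both comparisons with control use the same 3 control libraries, so their values are not independent of each other.

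**Figure D1:**
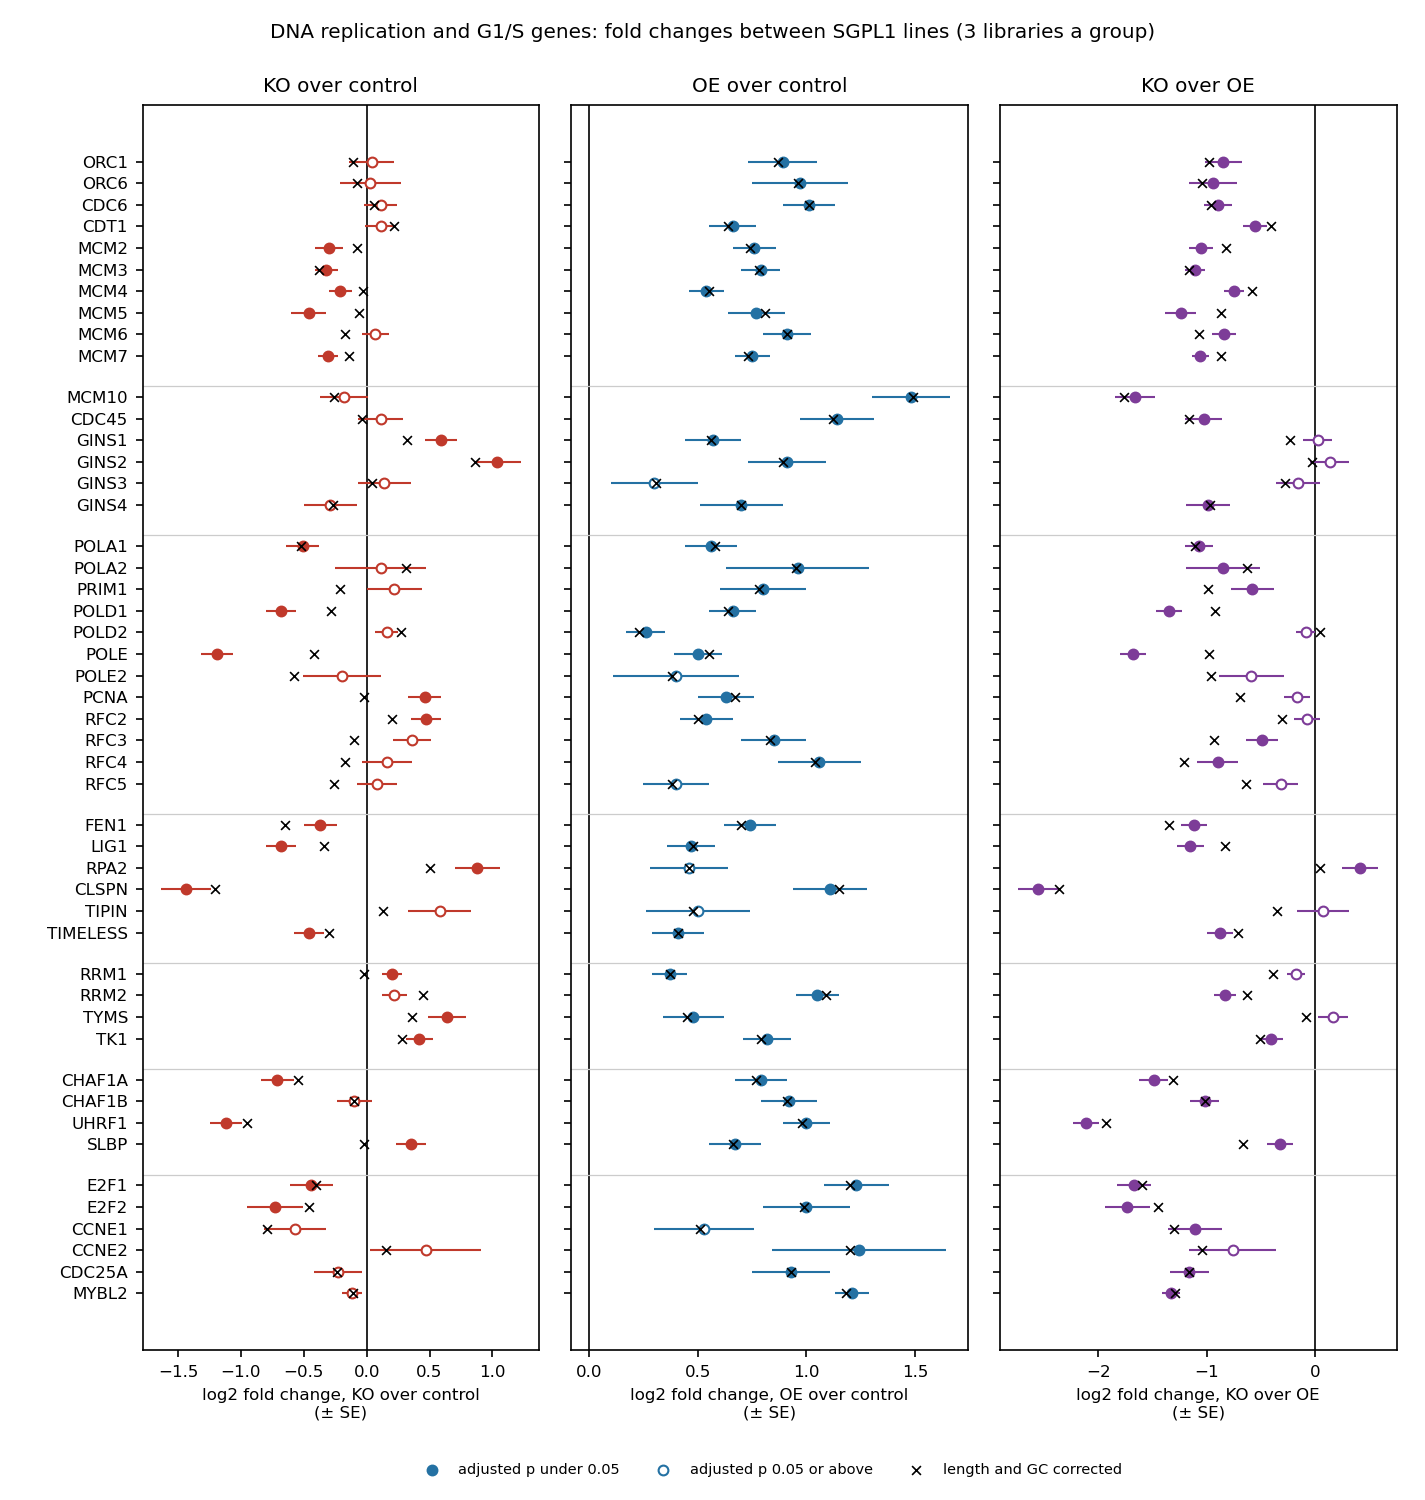
Log2 fold change with its standard error for each of the 48 members in KO over control, OE over control and KO over OE, ordered by role. Filled points passed an adjusted p of 0.05, open points did not, and crosses give the value corrected for exon length and GC content. In OE over control every point lies above 0, from 0.26 to 1.48, whereas in KO over control the points run from -1.44 to 1.04.

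The licensing factors and MCM subunits all rose in OE (10 of 10, median log2 fold change 0.78). In KO, 5 of the 10 fell and 5 were not called (median -0.09), and the 5 that fell were all MCM subunits. The called share in KO was 50.0% here, 33.3% in helicase activation and G1/S regulators, and 41.7% among polymerases, clamp and loader. It was 75.0% in nucleotide supply and chromatin assembly, and 83.3% in strand maturation and fork protection. Of all tested genes, 51.9% were called in KO, 26.0% as higher and 25.9% as lower, and in OE 18.6%, 9.28% as higher. MCM7 (chromosome 7, 100092728 to 100101940, minus strand, GRCh38), a core helicase subunit, had 112, 101 and 115 CPM in KO libraries, 212, 237 and 235 CPM in OE libraries, and 128, 137 and 142 CPM in control libraries. No groups overlapped, with KO lowest and OE highest. Its log2 fold change was -0.31 ± 0.08 in KO (SE, adjusted p = 0.00366), which became -0.14 when corrected (adjusted p = 0.146), and 0.75 ± 0.08 in OE (adjusted p = 6.10e-07). AP4M1 overlaps 8.9% of the exons of MCM7 on the other strand, and the counting set no strand.

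MCM3 (chromosome 6, 52264014 to 52284881, minus strand), another subunit of the ring, had 64.0, 54.8 and 61.9 CPM in KO libraries, 125, 127 and 136 CPM in OE libraries, and 69.1, 77.6 and 78.5 CPM in control libraries. The order was the same as for MCM7, again without overlap. It fell by 0.32 ± 0.09 in KO (adjusted p = 0.00644), or by 0.38 when corrected (adjusted p = 0.00092), and rose by 0.79 ± 0.09 in OE (adjusted p = 1.11e-06). Without KO replicate 2 the adjusted p of the KO change was 0.0510.

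MCM5 had 44.1, 43.3 and 68.1 CPM in KO libraries, 103, 127 and 132 CPM in OE libraries, and 74.5, 76.3 and 61.1 CPM in control libraries. KO replicate 3 reached into the control range, and all OE libraries lay above both other groups. The KO change of -0.46 ± 0.14 (adjusted p = 0.00787) came to -0.06 when corrected (adjusted p = 0.760), and it missed the threshold without KO replicate 1 (adjusted p = 0.0643) or KO replicate 2 (adjusted p = 0.0668). MCM2, MCM4 and MCM6 had log2 fold changes of -0.30, -0.21 and 0.07 in KO, of which the first 2 were called, and of 0.76, 0.54 and 0.91 in OE, all called. Corrected, MCM3 was the only 1 of the 6 MCM subunits called in KO. The 6 MCM subunits summed to 436, 398 and 476 CPM in KO libraries, 787, 893 and 896 CPM in OE libraries, and 489, 544 and 523 CPM in control libraries, so that every OE library exceeded every other library.

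The loading factors showed no call in KO. ORC1, the largest ORC subunit, ORC6, its smallest, the loading ATPase CDC6 and the loader CDT1 had log2 fold changes of 0.03 to 0.11 there. In OE they rose by 0.89 ± 0.16, 0.97 ± 0.22, 1.01 ± 0.12 and 0.66 ± 0.11. CDC6 had 30.0, 34.6 and 46.5 CPM in KO libraries, 63.2, 72.0 and 69.9 CPM in OE libraries, and 32.2, 35.1 and 34.7 CPM in control libraries. KO libraries lay on both sides of control, and OE libraries stood apart above both.

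Helicase activation genes rose in OE in 5 of 6 cases (median 0.81). In KO, 2 of 6 rose, 4 were not called and none fell (median 0.12, corrected 0.00), and the GINS subunits did not move together. GINS2 (chromosome 16, 85676198 to 85690073, minus strand) had 26.6, 26.4 and 38.9 CPM in KO libraries, 20.7, 27.4 and 34.7 CPM in OE libraries, and 16.0, 12.4 and 16.0 CPM in control libraries. KO and OE overlapped, and both lay wholly above control. GINS2 rose by 1.04 ± 0.19 in KO (adjusted p = 5.92e-05), or 0.86 corrected, and by 0.91 ± 0.18 in OE (adjusted p = 0.000881), and between KO and OE it differed by 0.13 (adjusted p = 0.559).

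GINS1 gave a like picture, with 28.3, 29.8 and 27.9 CPM in KO libraries, 25.2, 28.8 and 30.7 CPM in OE libraries, and 18.1, 19.9 and 19.1 CPM in control libraries. KO and OE overlapped and stood above control. The log2 fold changes were 0.59 ± 0.13 in KO (adjusted p = 0.000572, corrected 0.32 with adjusted p = 0.0426) and 0.57 ± 0.13 in OE (adjusted p = 0.00242).

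GINS4 had 7.71, 8.75 and 8.29 CPM in KO libraries, 17.6, 17.9 and 13.8 CPM in OE libraries, and 7.53, 10.8 and 11.8 CPM in control libraries. KO and control overlapped, and OE lay above both. Its change was -0.29 ± 0.21 in KO (adjusted p = 0.260) and 0.70 ± 0.19 in OE (adjusted p = 0.0116), and the OE call was lost without control replicate 1 (adjusted p = 0.0849) or OE replicate 2 (adjusted p = 0.0533). Relative to OE, the log2 fold change in KO was -0.99 ± 0.20 (adjusted p = 0.000187). GINS3 was called in no comparison, with changes of 0.14 in KO and 0.30 in OE. Together the 4 GINS subunits, which act as a complex, summed to 70.1, 75.1 and 83.4 CPM in KO libraries, 72.6, 84.3 and 89.2 CPM in OE libraries, and 49.4, 50.9 and 55.1 CPM in control libraries. Unlike the MCM sum, this sum was above control in all KO libraries. How different the GINS members are from the MCM members in KO was not tested as such.

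MCM10, which helps the loaded helicase open the origin, had the highest fold change of all members in OE. Its levels were 9.40, 9.08 and 17.2 CPM in KO libraries, 36.3, 35.5 and 38.1 CPM in OE libraries, and 12.0, 14.3 and 13.0 CPM in control libraries. KO libraries lay on both sides of control, with replicate 3 the highest. The change was -0.18 ± 0.19 in KO (adjusted p = 0.466) and 1.48 ± 0.18 in OE (adjusted p = 1.72e-06). CDC45, the cofactor that joins GINS on the helicase, had 14.2, 12.3 and 16.1 CPM in KO libraries, 25.9, 27.8 and 32.5 CPM in OE libraries, and 11.6, 16.6 and 11.0 CPM in control libraries, so that KO and control overlapped below OE. It rose by 1.14 ± 0.17 in OE (adjusted p = 2.74e-05), with 0.11 in KO.

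**Figure D2:**
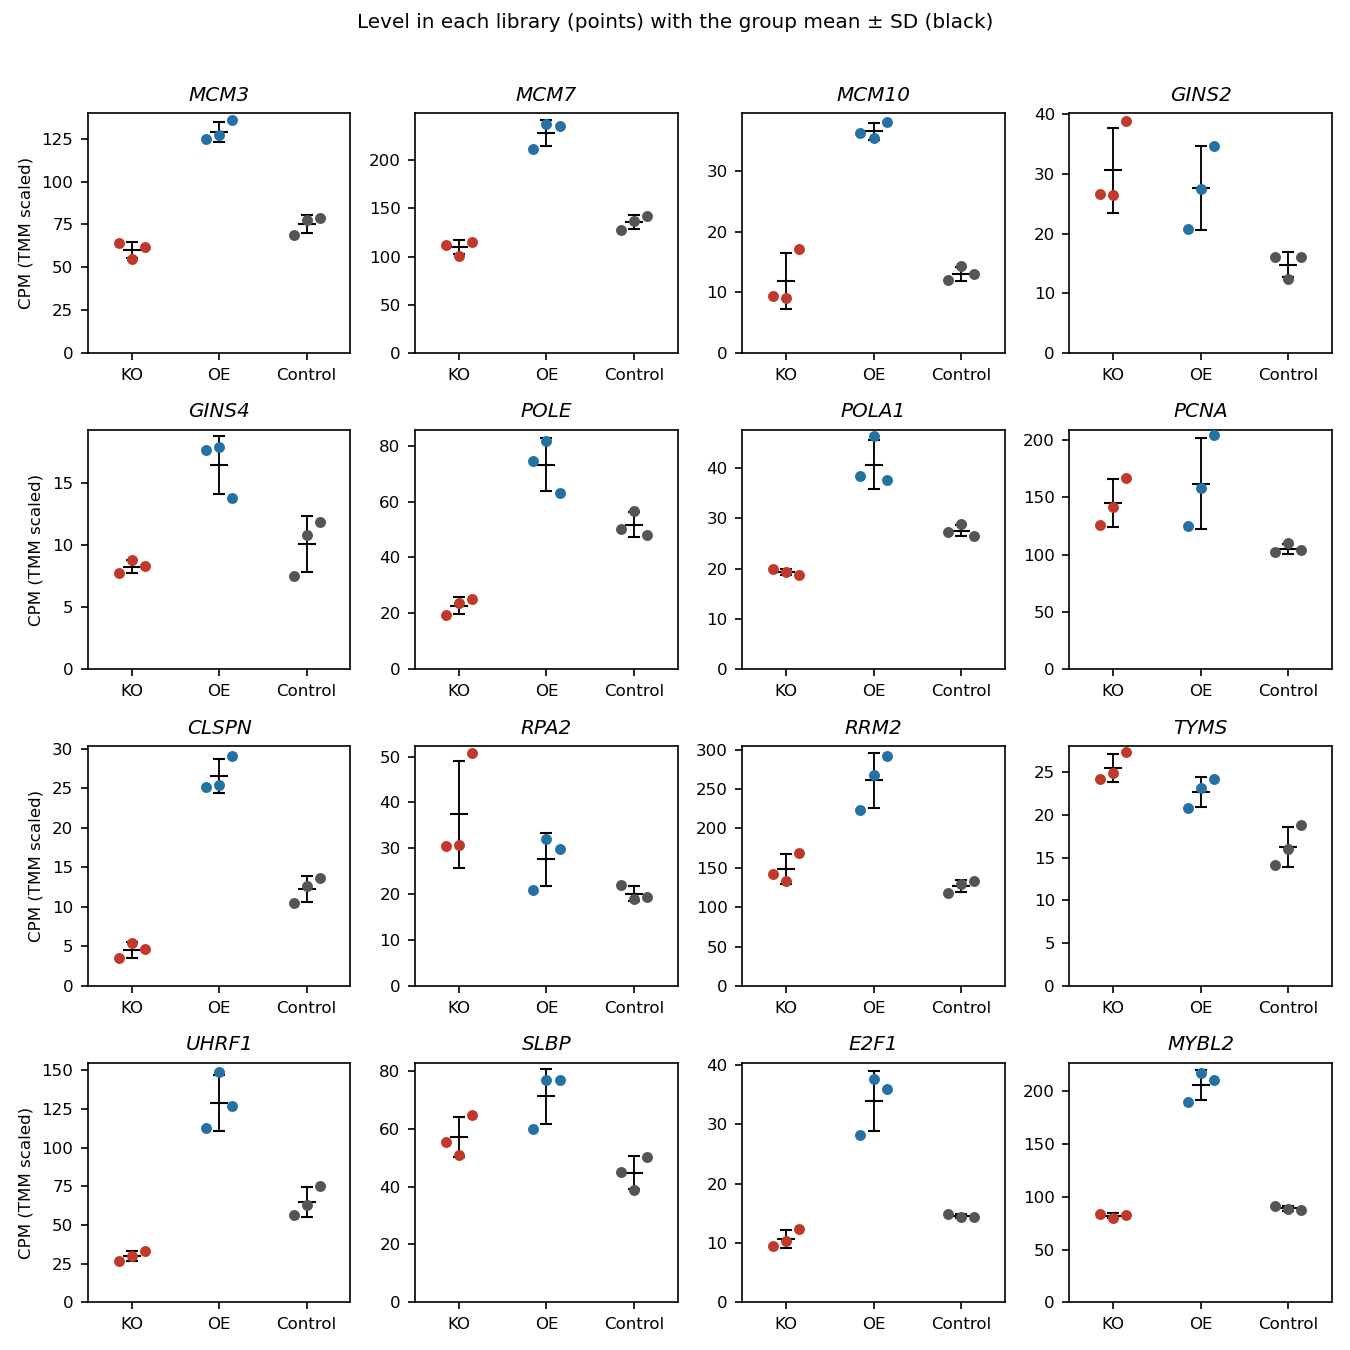
CPM in each library (points) with the group mean ± SD (black) for 16 members, with KO left, OE in the middle and control right in each panel. In MCM3, MCM7, POLE, POLA1, CLSPN, UHRF1 and E2F1 the KO libraries are lowest and the OE libraries highest, whereas in GINS2, TYMS and SLBP KO and OE libraries both lie above control.

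Among polymerase, primase, clamp and loader subunits, 10 of 12 rose in OE (median 0.59). In KO, 2 rose, 3 fell and 7 were not called (median 0.14), and the 3 that fell were the large catalytic subunits. Corrected, 1 was higher and 2 were lower, and the median changed sign to -0.19, with 9 of 12 values below 0. POLE (chromosome 12, 132623753 to 132687376, minus strand), the catalytic subunit of leading-strand polymerase epsilon, had 19.5, 23.9 and 25.0 CPM in KO libraries, 74.4, 81.8 and 63.0 CPM in OE libraries, and 50.3, 56.6 and 48.1 CPM in control libraries. The groups did not overlap. POLE changed by -1.19 ± 0.13 in KO (adjusted p = 5.11e-08). Its exon length of 16790 bases was the longest of the members, and the corrected change was -0.42 (adjusted p = 0.00331). In OE it rose by 0.50 ± 0.11 (adjusted p = 0.00305).

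POLD1, the catalytic subunit of lagging-strand polymerase delta, had 25.4, 21.1 and 20.6 CPM in KO libraries, 55.0, 61.1 and 55.3 CPM in OE libraries, and 33.2, 40.3 and 34.5 CPM in control libraries. It also showed no overlap, with changes of -0.68 ± 0.12 in KO (adjusted p = 7.35e-05, corrected -0.28 with adjusted p = 0.0533) and 0.66 ± 0.11 in OE (adjusted p = 0.000185). POLA1, the catalytic subunit of the primer-making polymerase alpha, had 19.9, 19.4 and 18.8 CPM in KO libraries, 38.4, 46.3 and 37.6 CPM in OE libraries, and 27.3, 28.8 and 26.6 CPM in control libraries. The change of POLA1 in KO was nearly equal with and without the correction, at -0.52 and -0.51 ± 0.13 (adjusted p = 0.00141 and 0.00209), and it rose by 0.56 ± 0.12 in OE (adjusted p = 0.00163).

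POLA2, PRIM1, POLD2 and POLE2, the accessory or primase partners of these enzymes, were not called in KO, with log2 fold changes of 0.11, 0.22, 0.16 and -0.20. In OE the first 3 rose, by 0.96 ± 0.33, 0.80 ± 0.20 and 0.26 ± 0.09, and POLE2 had 0.40 with adjusted p = 0.379. Another gene shares 36.1% of the exon bases of POLA2 on the same strand, so its count is uncertain.

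PCNA (chromosome 20, 5114953 to 5126626, minus strand), whose promoter stretch is shown above, had 126, 142 and 167 CPM in KO libraries, 125, 158 and 204 CPM in OE libraries, and 102, 110 and 104 CPM in control libraries. KO and OE both stood above control and overlapped each other. Its change in KO was 0.46 ± 0.13 (adjusted p = 0.00440). Its exon length of 1403 bases was the shortest of the members, and the corrected change was -0.02 (adjusted p = 0.906). In OE it rose by 0.63 ± 0.13 (adjusted p = 0.000890). PCNA in KO over OE was -0.17 ± 0.12 (adjusted p = 0.252), or -0.69 corrected (adjusted p = 2.37e-06). Of the clamp loader subunits RFC2 to RFC5, RFC2 rose in KO by 0.47 ± 0.12 (corrected 0.20, adjusted p = 0.195) and 3 of 4 rose in OE, by 0.54, 0.85 and 1.06 for RFC2, RFC3 and RFC4. RFC5 had 0.08 in KO and 0.40 in OE without a call. The 4 loader subunits summed to 83.0, 96.3 and 105 CPM in KO libraries, to 123 CPM in each OE library, and to 76.2, 79.7 and 72.4 CPM in control libraries.

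Strand maturation and fork protection held the member with the largest KO difference. CLSPN (chromosome 1, 35720218 to 35769978, minus strand) encodes claspin, the adaptor that passes the replication stress signal from ATR to CHK1. It had 3.49, 5.38 and 4.73 CPM in KO libraries, 25.2, 25.5 and 29.1 CPM in OE libraries, and 10.5, 12.7 and 13.7 CPM in control libraries. The groups were far apart, KO lowest and OE highest. The log2 fold changes were -1.44 ± 0.20 in KO (adjusted p = 2.78e-06, corrected -1.21), 1.11 ± 0.17 in OE (adjusted p = 3.33e-05) and -2.55 ± 0.19 for KO over OE (adjusted p = 1.25e-10).

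LIG1, the ligase that seals Okazaki fragments, had 28.0, 25.7 and 25.7 CPM in KO libraries, 61.6, 64.6 and 50.8 CPM in OE libraries, and 43.0, 41.1 and 43.3 CPM in control libraries. All groups were separate. It fell by 0.68 ± 0.12 in KO (adjusted p = 3.65e-05), or by 0.34 corrected (adjusted p = 0.0140), and rose by 0.47 ± 0.11 in OE (adjusted p = 0.00321). FEN1, the flap endonuclease that prepares those fragments, and TIMELESS, a fork protection subunit, fell in KO by 0.37 and 0.46 (corrected by 0.65 and 0.30) and rose in OE by 0.74 and 0.41. The OE call of TIMELESS was lost without control replicate 1 (adjusted p = 0.113). TIPIN, the partner of TIMELESS, was called in no comparison, with 0.58 in KO (adjusted p = 0.0567) and 0.50 in OE.

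RPA2, a subunit of the single-strand binding protein, was the 1 member called higher in KO than in OE. It had 30.6, 30.7 and 50.7 CPM in KO libraries, 21.0, 32.1 and 29.8 CPM in OE libraries, and 21.9, 19.0 and 19.4 CPM in control libraries. KO lay above control, with replicate 3 well above the others, and OE overlapped both. The change was 0.88 ± 0.18 in KO (adjusted p = 0.000258, corrected 0.50 with adjusted p = 0.0165) and 0.46 ± 0.18 in OE (adjusted p = 0.0734). Over OE it was 0.41 ± 0.17 higher in KO (adjusted p = 0.0453), a call lost when corrected (0.04, adjusted p = 0.836) and in 5 of the 9 fits that left out a library.

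Nucleotide supply had 3 members higher, 0 lower and 1 not called in KO (median 0.32), and all 4 rose in OE (median 0.65). TYMS (chromosome 18, 657653 to 673578, plus strand), thymidylate synthase, had 24.2, 24.9 and 27.4 CPM in KO libraries, 20.8, 23.1 and 24.2 CPM in OE libraries, and 14.1, 16.0 and 18.8 CPM in control libraries. KO and OE libraries were all above control. It rose by 0.64 ± 0.15 in KO (adjusted p = 0.000716, corrected 0.36 with adjusted p = 0.0434) and by 0.48 ± 0.14 in OE (adjusted p = 0.0201), and the OE call was lost in 4 of the 9 fits that left out a library. ENOSF1 shares 39.9% of the TYMS exon bases on the other strand, so the TYMS count is uncertain. TK1, thymidine kinase of the salvage pathway, had 68.1, 85.9 and 93.7 CPM in KO libraries, 95.2, 112 and 120 CPM in OE libraries, and 64.3, 59.4 and 61.3 CPM in control libraries. The groups did not overlap, with KO between OE and control, and the changes were 0.42 ± 0.11 in KO (adjusted p = 0.00310, corrected 0.28) and 0.82 ± 0.11 in OE (adjusted p = 7.57e-06).

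Both subunits of ribonucleotide reductase, which makes deoxynucleotides, rose in OE. RRM2, the cell-cycle regulated small subunit, had 142, 133 and 169 CPM in KO libraries, 223, 268 and 292 CPM in OE libraries, and 118, 129 and 133 CPM in control libraries. OE stood well above both other groups. RRM2 rose by 1.05 ± 0.10 in OE (adjusted p = 8.33e-08) and had 0.22 ± 0.10 in KO (adjusted p = 0.0725, corrected 0.45 with adjusted p = 0.000568). RRM1, the large subunit, had 161, 138 and 151 CPM in KO libraries, 172, 165 and 171 CPM in OE libraries, and 123, 138 and 132 CPM in control libraries. The lowest KO library met the highest control library. Its KO change of 0.20 ± 0.08 (adjusted p = 0.0479, corrected -0.02 with adjusted p = 0.857) was lost in 7 of the 9 fits that left out a library, and in OE it rose by 0.37 ± 0.08 (adjusted p = 0.00194).

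All 4 chromatin assembly members rose in OE (median 0.85), and in KO 2 fell, 1 rose and 1 was not called (median -0.40). UHRF1 (chromosome 19, 4903080 to 4962154, plus strand), which brings the maintenance methyltransferase to newly copied DNA, had 26.9, 29.9 and 33.3 CPM in KO libraries, 113, 149 and 127 CPM in OE libraries, and 56.2, 63.3 and 75.4 CPM in control libraries. The groups were fully separate, with KO below control and OE above it. The changes were -1.12 ± 0.13 in KO (adjusted p = 1.11e-07, corrected -0.95), 1.00 ± 0.11 in OE (adjusted p = 1.11e-06) and -2.11 ± 0.12 for KO over OE (adjusted p = 2.16e-12).

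CHAF1A, the large subunit of chromatin assembly factor 1, had 23.4, 18.6 and 21.6 CPM in KO libraries, 59.2, 63.4 and 56.5 CPM in OE libraries, and 36.2, 37.7 and 29.6 CPM in control libraries. Its groups were likewise separate, with changes of -0.71 ± 0.13 in KO (adjusted p = 7.20e-05, corrected -0.55) and 0.79 ± 0.12 in OE (adjusted p = 3.32e-05). CHAF1B, its partner, had -0.10 in KO without a call and rose by 0.92 ± 0.13 in OE. SLBP, which binds the stem-loop of histone mRNA, had 55.4, 51.0 and 64.8 CPM in KO libraries, 60.0, 76.7 and 76.6 CPM in OE libraries, and 45.1, 38.9 and 50.2 CPM in control libraries. KO lay above control, if narrowly, and the rise of 0.35 ± 0.12 in KO (adjusted p = 0.0210) was -0.02 when corrected (adjusted p = 0.921) and was lost without control replicate 2 (adjusted p = 0.133) or KO replicate 3 (adjusted p = 0.116).

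Of the 6 G1/S regulators, 5 rose in OE (median 1.11). In KO, 2 fell, none rose and 4 were not called (median -0.34). E2F1 (chromosome 20, 33675477 to 33686385, minus strand) had 9.52, 10.3 and 12.3 CPM in KO libraries, 28.2, 37.6 and 35.9 CPM in OE libraries, and 14.8, 14.3 and 14.3 CPM in control libraries. The groups did not overlap. It rose by 1.23 ± 0.15 in OE (adjusted p = 2.20e-06), and its change of -0.44 ± 0.17 in KO (adjusted p = 0.0281) became -0.40 when corrected (adjusted p = 0.0520) and was lost in 5 of the 9 fits that left out a library. E2F2, also an activator E2F, had 5.90, 7.62 and 7.27 CPM in KO libraries, 18.7, 24.9 and 25.3 CPM in OE libraries, and 7.75, 14.2 and 12.6 CPM in control libraries. KO lay just below control, with changes of -0.73 ± 0.22 in KO (adjusted p = 0.00796, corrected -0.46 with adjusted p = 0.0850) and 1.00 ± 0.20 in OE (adjusted p = 0.000710). Without control replicate 2 the KO change of E2F2 had adjusted p = 0.0662.

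MYBL2 (chromosome 20, 43667019 to 43716495, plus strand), the B-MYB factor that carries the program on towards G2, had 84.2, 79.8 and 82.4 CPM in KO libraries, 190, 217 and 211 CPM in OE libraries, and 91.2, 88.4 and 87.4 CPM in control libraries. Libraries within a group were close together, and KO lay just below control. It rose by 1.21 ± 0.08 in OE (adjusted p = 2.45e-10), had -0.12 ± 0.08 in KO (adjusted p = 0.259), and KO over OE was -1.33 ± 0.08 (adjusted p = 6.17e-12). CCNE1, cyclin E1, had 3.98, 6.95 and 7.10 CPM in KO libraries, 12.3, 14.5 and 11.8 CPM in OE libraries, and 11.8, 6.53 and 8.31 CPM in control libraries. KO and control overlapped, and the uncorrected changes of -0.57 ± 0.25 in KO (adjusted p = 0.0636) and 0.53 ± 0.23 in OE (adjusted p = 0.115) were not called. Corrected, CCNE1 was called lower in KO, at -0.79 (adjusted p = 0.0115). For KO over OE its change was -1.11 ± 0.25 (adjusted p = 0.000514). CCNE2, cyclin E2, rose by 1.24 ± 0.40 in OE (adjusted p = 0.0348) on 338 counts over all libraries, with 37.0% of its exon bases shared with INTS8 on the other strand. CDC25A rose by 0.93 ± 0.18 in OE (adjusted p = 0.000515) and had -0.23 in KO.

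KO values of the members ran with exon length. Across the 48, Spearman's rho between log2 fold change and exon length was -0.54 in KO over control, against -0.37 over the 13390 tested genes, and with GC content it was -0.44 against -0.18. After correction the members' rho with length was -0.26, against -0.04 over all tested genes. In OE over control it was 0.13 for the members and -0.04 over all tested genes. These values describe genes within the same libraries, which are not independent replicates, and what links length to KO level was not tested. Members had a median exon length of 4140 bases, from 1403 to 16790, where tested genes had 5038, and a median GC content of 50.2% where tested genes had 48.1%.

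**Figure D3:**
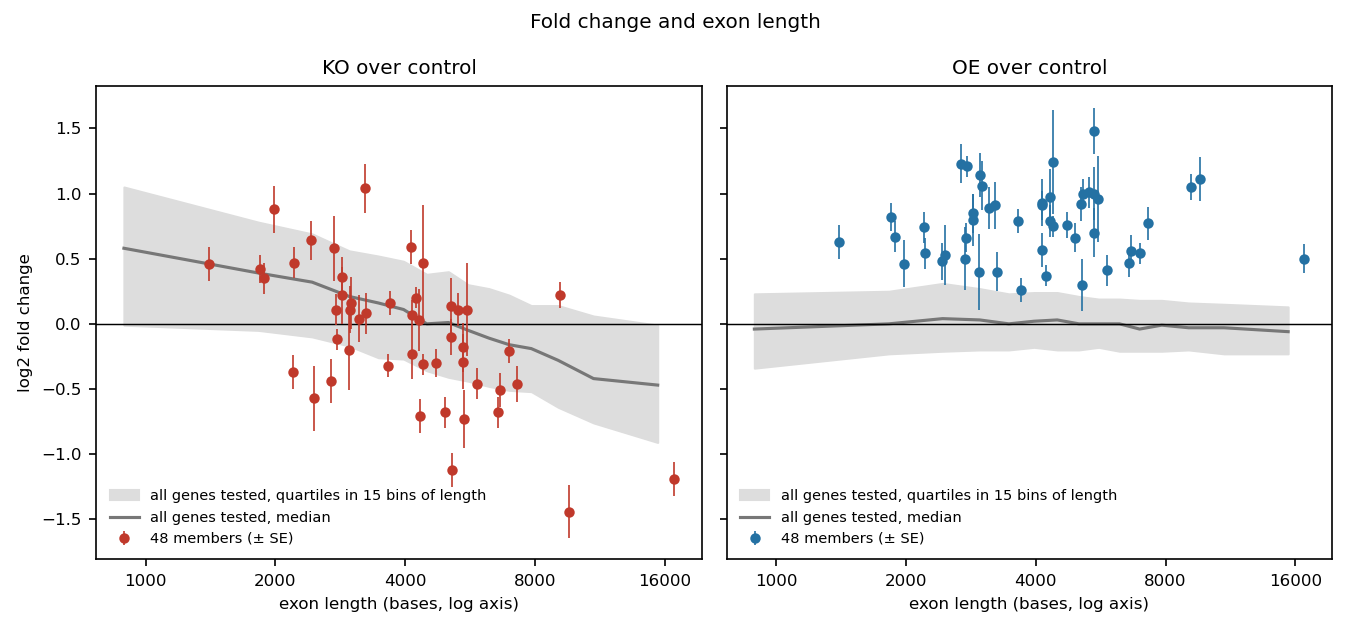
Log2 fold change against exon length (log axis) for the 48 members (points, ± SE) over the median and quartiles of all tested genes in 15 bins of length (grey), for KO over control (left) and OE over control (right). In KO the grey median runs from 0.58 in the shortest bin to -0.47 in the longest and the members scatter about it, whereas in OE the grey median stays between -0.06 and 0.04 and the members lie above it.

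Compared per kilobase of exon, members differed widely in level. In control cells PCNA had the highest mean level of the group, with 103 CPM per kb in KO, 116 CPM per kb in OE and 75.1 CPM per kb in control, followed in control by POLD2 (35.0 CPM per kb), TK1 (33.4 CPM per kb) and MYBL2 (32.1 CPM per kb). At the low end stood CLSPN with 0.473 CPM per kb in KO, 2.77 CPM per kb in OE and 1.28 CPM per kb in control, then POLA2 (0.613 CPM per kb in control) and CCNE2 (0.565 CPM per kb in control). POLA2 and CCNE2 share 36.1% and 37.0% of their exon bases with another gene, so their levels per kb are uncertain. Across the 48 members, Spearman's rho between log2 fold change and control level was -0.12 in KO over control and -0.20 in OE over control.

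Replication genes outside the group that were called in OE all rose, on a list drawn up with earlier results of these data known. Of 37 further replication genes listed, 36 were tested, and in OE 22 rose, none fell and 14 were not called (median 0.57), while in KO 12 rose, 7 fell and 17 were not called (median 0.17, corrected 11 and 10 with a median of 0.03). The called share of the 36 was 61.1% in OE, where 18.6% of all tested genes were called and 9.28% as higher, and 52.8% in KO, close to the 51.9% of all tested genes. Corrected, the KO share was 58.3%, where 45.5% of all tested genes were called. DTL, the adaptor that marks CDT1 for destruction, had 17.8, 20.3 and 20.5 CPM in KO libraries, 34.0, 40.0 and 35.9 CPM in OE libraries, and 12.3, 13.8 and 12.2 CPM in control libraries. It rose by 1.52 ± 0.14 in OE (adjusted p = 3.91e-08) and by 0.61 ± 0.14 in KO (adjusted p = 0.00111, corrected 0.45), with no overlap between groups. GMNN, geminin, which blocks CDT1 after licensing, had 44.5, 40.7 and 60.7 CPM in KO libraries, 34.4, 35.6 and 43.5 CPM in OE libraries, and 20.0, 19.6 and 19.4 CPM in control libraries. KO and OE overlapped above control, with changes of 1.29 ± 0.14 in KO (adjusted p = 9.59e-08, corrected 0.88) and 0.95 ± 0.14 in OE (adjusted p = 3.73e-05). In KO, RPA3 and POLE4, small subunits of RPA and polymerase epsilon, rose by 1.25 and 1.05 (corrected 0.95 and 0.71), while DNMT1, the methyltransferase that UHRF1 recruits, fell by 1.16 ± 0.10 (corrected by 0.63). In OE, ATAD2, a bromodomain ATPase, ASF1B, a histone chaperone, and EXO1, an exonuclease, rose by 1.00, 0.95 and 1.18, and DNMT1 by 0.55.

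The other G1/S control genes listed did not, as a list, share the one-way pattern of the members. Of 27 tested, 6 rose, 5 fell and 16 were not called in OE (median 0.06), and 4 rose, 7 fell and 16 were not called in KO (median -0.09). The called share was 40.7% in each comparison, where 18.6% of all tested genes were called in OE and 51.9% in KO. Corrected, 4 rose and 9 fell in KO (median -0.19), a share of 48.1% where 45.5% of all tested genes were called. The 5 that fell in OE were CCND2 and the kinase inhibitors CDKN1A, CDKN1C, CDKN2A and CDKN2B, while CDKN2C, an inhibitor of the same family as CDKN2A, rose by 0.92 ± 0.21 (adjusted p = 0.00309). CDKN2A, which encodes p16 and ARF, had 17.7, 21.5 and 21.6 CPM in KO libraries, 3.10, 3.83 and 2.84 CPM in OE libraries, and 15.4, 20.6 and 15.5 CPM in control libraries. OE stood far below both other groups, which overlapped. The change was -2.41 ± 0.20 in OE (adjusted p = 1.70e-08) and 0.24 ± 0.17 in KO (adjusted p = 0.267, corrected 0.50 with adjusted p = 0.0204). CDKN2B, the neighbouring gene for p15, had 151, 149 and 151 CPM in KO libraries, 63.1, 55.6 and 56.5 CPM in OE libraries, and 161, 156 and 154 CPM in control libraries. Its change was -1.43 ± 0.08 in OE (adjusted p = 2.13e-11) and -0.07 ± 0.08 in KO (adjusted p = 0.517, corrected -0.29 with adjusted p = 0.00277). Again OE lay apart and low.

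CDKN1C, p57, fell in both, by 1.21 ± 0.17 in OE (adjusted p = 1.45e-05) and by 0.83 ± 0.17 in KO (adjusted p = 0.000224). CDKN1A, p21, named like CDKN2C after its values were seen, had 802, 809 and 698 CPM in KO libraries, 510, 537 and 524 CPM in OE libraries, and 649, 664 and 695 CPM in control libraries. CDKN1A fell by 0.35 in OE (adjusted p = 0.00184) and rose by 0.20 in KO (adjusted p = 0.0311, corrected 0.18 with adjusted p = 0.0443). Its KO call was kept in only 4 of the 9 fits that left out a library. CCND2, cyclin D2, fell in OE by 0.68 and in KO by 0.58, and CCNA2, cyclin A2, rose in OE by 0.86 and in KO by 0.43, where the corrected KO value was 0.00 (adjusted p = 0.984). CDK6, a partner of D cyclins, and E2F8, a repressor E2F, fell in KO by 0.43 and 0.98. Corrected, the KO change was -0.20 for CDK6 (adjusted p = 0.0445) and -1.16 for E2F8. Whether the level of any inhibitor has a part in the members' levels was not tested.

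**Figure D4:**
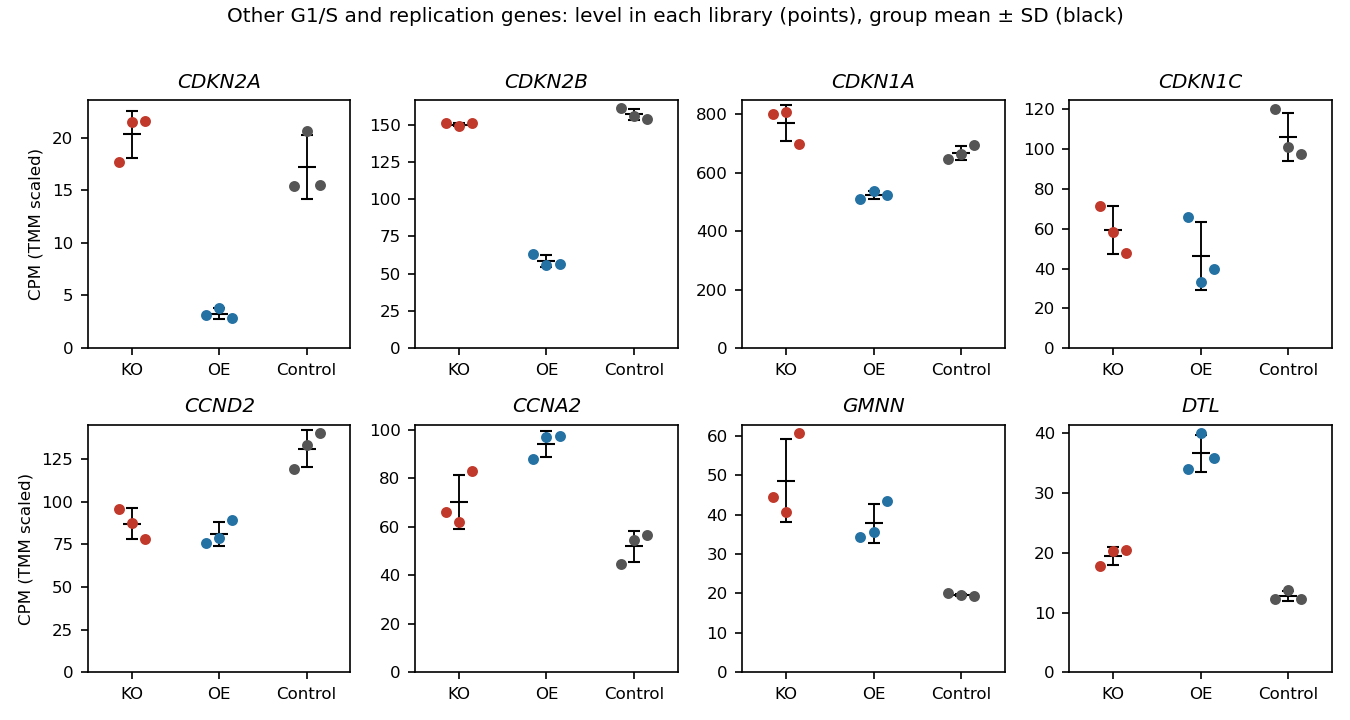
CPM in each library (points) with the group mean ± SD (black) for 8 genes of G1/S control and replication outside the group of 48, with KO left, OE in the middle and control right. CDKN2A and CDKN2B are low in OE libraries alone, at 2.84 to 3.83 CPM and 55.6 to 63.1 CPM, while GMNN and DTL are above control in both KO and OE libraries.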

How the data were processed

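Whole-number counts of reads per gene were deposited for 9 libraries of polyadenylated RNA, 3 each for KO, OE and control, and were not normalized. Per the file headers they were made with featureCounts 1.5.2 on GRCh38 with Ensembl release 101, with no option for strand, read pairs or overlapping genes. FastQC, HISAT2 1.03, DESeq2 and a featureCounts version of 0.1.0 are listed in the submitters' processing notes. Reads from exon bases that a gene shares with another gene on either strand can therefore not be assigned with certainty. Mates of a fragment may have been counted separately.

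Of 60671 genes, 13390 passed edgeR's filterByExpr at a minimum count of 10. edgeR 4.0.16 in R 4.3.3 (limma 3.58.1) fitted a quasi-likelihood model to all 9 libraries with TMM scaling and the group as the only term, tested two-sided with Benjamini-Hochberg adjustment over all tested genes at 0.05, and was tested on simulated counts. No pair of replicates agreed within sampling noise (chi-square divided by its degrees of freedom, 2.74 to 11.6). The corrected fit added a loess offset (span 0.3) of log2 CPM over log2 exon length and GC content, the latter from GENCODE release 29 and known for 99.6% of tested genes. Alternatives were this offset, DESeq2's size factors and Wald test (DESeq2 1.42.0), limma-voom, no filter, only the groups compared, a threshold of 0.01, a block for the replicate number of the titles, and leaving out each library.

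Members, role groups and lists were chosen with earlier results of these data known. Values in each library are given for up to 3 members of a role by smallest p in KO against control and up to 2 by smallest p in the other comparisons, and for up to 4 genes of a list, or fewer where described by fold change. A few further members and genes are given for their role. Groups follow the genotype in the labels. Gene names came from the gene table supplied with the reference and left 18651 genes without a symbol, and promoter sequences from RefSeq on GRCh38.p14.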

Additional observations from a re-analysis of the deposited data

How the results depend on the processing

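The OE increase kept its direction under each alternative tried, with 38 to 43 members higher and a median of 0.71 to 0.81 when a library was left out, 36 higher at a threshold of 0.01, and 42 or 43 under the others. In KO over control the offset for length and GC content gave 10 members lower in place of 16, and turned PCNA, RRM1 and SLBP from calls as higher to -0.02 each, or -0.02, -0.02 and -0.01 with the replicate block as well. When a library was left out, KO counts ran from 7 to 11 higher and 10 to 17 lower. RPA2, the 1 member higher in KO over OE, was not called under limma-voom, the offset, the block with the offset, the fit of only these groups or a threshold of 0.01 (0 members higher each), and 0 to 1 member was called when a library was left out. When a library was left out, the median of KO over control ran from -0.09 to 0.04 and that of KO over OE from -0.99 to -0.85. That of KO over control was -0.10 with the offset and 0.06 with the replicate block. Same-numbered libraries did not deviate together (9 pairs, r from -0.077 to 0.066, and 1 of 9 libraries correlated best with its own number). These values cannot show whether same-numbered libraries were cultured or prepared together. With the number as a replicate block 26 members were called in KO over control, 42 in OE over control and 36 in KO over OE. Shares of all tested genes called are given only for the full fit and the offset. They were 51.9% and 45.5% in KO over control, 18.6% and 21.2% in OE over control, and 57.6% and 53.2% in KO over OE. Counts of members under the other settings have no such share beside them and cannot be judged against genes in general. Depth limits low members such as CCNE2, with 338 counts in all.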

Other observations

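Genes of mitosis, which the report does not cover, also rose in OE, on a list likewise drawn up with earlier results of these data known. All 24 listed were tested and rose in OE over control, by 0.42 to 0.84 on the log2 scale, with a median of 0.62, where 18.6% of all tested genes were called, 9.28% as higher. In KO over control 10 rose, 7 fell and 7 were not called (median 0.21), a called share of 70.8% where 51.9% of all tested genes were called. Corrected, 5 rose and 7 fell (median -0.05), a share of 50.0% where 45.5% of all tested genes were called. CENPE, the kinesin of the kinetochore, had 14.7, 14.0 and 17.2 CPM in KO libraries, 78.1, 82.2 and 64.7 CPM in OE libraries, and 54.2, 50.0 and 60.1 CPM in control libraries. The groups did not overlap, and CENPE changed by -1.85 ± 0.13 in KO (adjusted p = 8.83e-11, corrected -1.84) and by 0.45 ± 0.11 in OE (adjusted p = 0.00539).

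MKI67, the proliferation marker Ki-67, had 54.3, 64.3 and 72.0 CPM in KO libraries, 272, 326 and 241 CPM in OE libraries, and 159, 165 and 188 CPM in control libraries, with no overlap. Its changes were -1.43 ± 0.11 in KO (adjusted p = 5.51e-10, corrected -0.97) and 0.71 ± 0.10 in OE (adjusted p = 2.83e-05). BIRC5, survivin, rose in both, with 95.4, 99.8 and 132 CPM in KO libraries, 68.7, 71.3 and 81.1 CPM in OE libraries, and 44.0, 50.8 and 51.0 CPM in control libraries. Changes of BIRC5 were 1.16 ± 0.12 in KO (adjusted p = 1.75e-08, corrected 1.13) and 0.60 ± 0.11 in OE (adjusted p = 0.000515). CENPF, another kinetochore protein, changed by -1.02 ± 0.12 in KO (corrected -0.77) and by 0.57 ± 0.11 in OE. The genes of the list with the smallest p in OE, CDC20, TPX2, TOP2A and PLK1, rose by 0.67, 0.54, 0.60 and 0.68.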
